A study of Mus musculus with 12 samples.

Results

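Levels of 9 genes that move and make the amino acid transmitters glutamate and GABA were followed in cochlear glial cells of the mouse before and after neuronal induction. They were chosen by name out of the 55487 genes in the table. Slc17a6, Slc17a7 and Slc17a8 encode the vesicular glutamate transporters VGLUT2, VGLUT1 and VGLUT3. Slc1a1, Slc1a2 and Slc1a3 encode the plasma membrane glutamate transporters EAAC1, GLT1 and GLAST. Glul encodes glutamine synthetase, Gad1 encodes the GABA-forming enzyme glutamate decarboxylase GAD67, and Slc32a1 encodes the vesicular GABA and glycine transporter VGAT.

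RNA-seq was made of 12 libraries, 3 in each of 4 groups, from spiral ganglia of postnatal day 4 mice of mixed C57Bl6 and FVB/N background. Each preparation pooled the ganglia of 6 to 8 mice of both sexes. Spheres were suspension cultures grown with EGF (20 ng/ml), bFGF (10 ng/ml), IGF (50 ng/ml) and heparan sulfate (50 ng/ml), taken 5 to 7 days after passage, and they were the starting cells of every other group. SCDM was differentiation for 14 days in DMEM/F12 with B27, N2, BDNF (50 ng/ml) and NT3 (50 ng/ml), and SCDM/FGF was the same medium with bFGF at 100 ng/ml. FIBCL was differentiation for 14 days in Neurobasal medium with B27, N2, GlutaMax, CHIR99021 (10 μM), LIF (1000 U/ml), I-BET (1 μM in the labels), Forskolin and ISX9 (20 μM each) and bFGF, which the labels list at 100 and at 50 ng/ml. BDNF and NT3 are not listed for FIBCL, so in a comparison of FIBCL with SCDM the small molecules cannot be told apart from the growth factors or the base medium. The columns read as FIBCL are headed FIBC in the table, a name also in use for the mixture without LIF. The labels call the libraries of a group biological replicates without saying whether each came from its own preparation, so the p-values measure the spread between these libraries. In bulk RNA, fewer cells of a type and less RNA per cell cannot be told apart.

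In a glutamatergic neuron, a vesicular glutamate transporter loads glutamate into synaptic vesicles for release. Released glutamate is cleared mainly by glia through GLAST and GLT1, and glutamine synthetase turns it into glutamine, which returns to neurons and is converted to glutamate again. GABAergic neurons add the decarboxylation of glutamate by GAD67 or its relative GAD65 and the loading of GABA by VGAT. Spiral ganglion neurons, which carry sound signals from the hair cells to the brainstem, are glutamatergic and use VGLUT1 and VGLUT2, whereas inner hair cells use VGLUT3. GLAST and glutamine synthetase are known in the glia and supporting cells of the cochlea.

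Values are scaled TPM, that is, TPM (transcript abundance relative to the total of a library and per length) after each library was brought to a common scale on genes expressed in all. Because TPM is corrected for transcript length, levels can be compared between genes. Differences are on the scale log2(scaled TPM + 1), which understates changes of low genes, and were tested by limma with Benjamini-Hochberg adjustment over the 16016 genes that reached 1 TPM in 3 or more libraries. A gene is called at an adjusted p under 0.05. The libraries had 21625 to 22281 genes above 0, and the number of reads behind a value is unknown. Summed levels of 10 pan-neuronal markers were 515 to 536 in FIBCL and 17.3 to 23.6 in the other groups. Summed levels of 10 Schwann and satellite glial markers were 57.6 to 59.6 in FIBCL, 307 to 370 in SCDM and SCDM/FGF and 589 to 617 in spheres. Pmp22 alone made up 37.1 to 41.0 of this sum in FIBCL and 146 to 167 in SCDM. It was called higher in SCDM than in spheres (24.5% of all genes were), where 8 of the 10 were called lower (25.8%). Markers of other cells differed as well, with 7 fibroblast and otic mesenchyme markers summing to 5241 to 5952 in SCDM and SCDM/FGF, 2513 to 2551 in spheres and 55.2 to 57.0 in FIBCL, and 7 macrophage markers to 1479 to 1887 in SCDM and SCDM/FGF, 105 to 128 in spheres and 158 to 182 in FIBCL. Of the fibroblast and mesenchyme markers, the collagen genes Col1a1, Col1a2 and Col3a1 were higher in SCDM than in spheres, while Dcn, Lum and Pdgfra were lower. Cd68 alone made up 152 to 177 of the macrophage sum in FIBCL, where 5 of the 7 were below 1 in every library. The deposited TPM of mitochondrial genes summed to 91148 to 93606 in FIBCL and 43651 to 64988 in the 9 other libraries. The neuronal, glial and fibroblast sums and the mitochondrial share set FIBCL apart from all other groups. The macrophage sum of FIBCL lay between that of spheres and those of SCDM and SCDM/FGF. The part of these lists and of the mitochondrial share in the differences between FIBCL and the other groups was not tested. The scale matters for the direction of small differences: of the genes called in FIBCL against SCDM, 45.6% were higher, but 26.9% on the deposited TPM and 31.7% after rescaling to a common total.

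**Figure D1:**
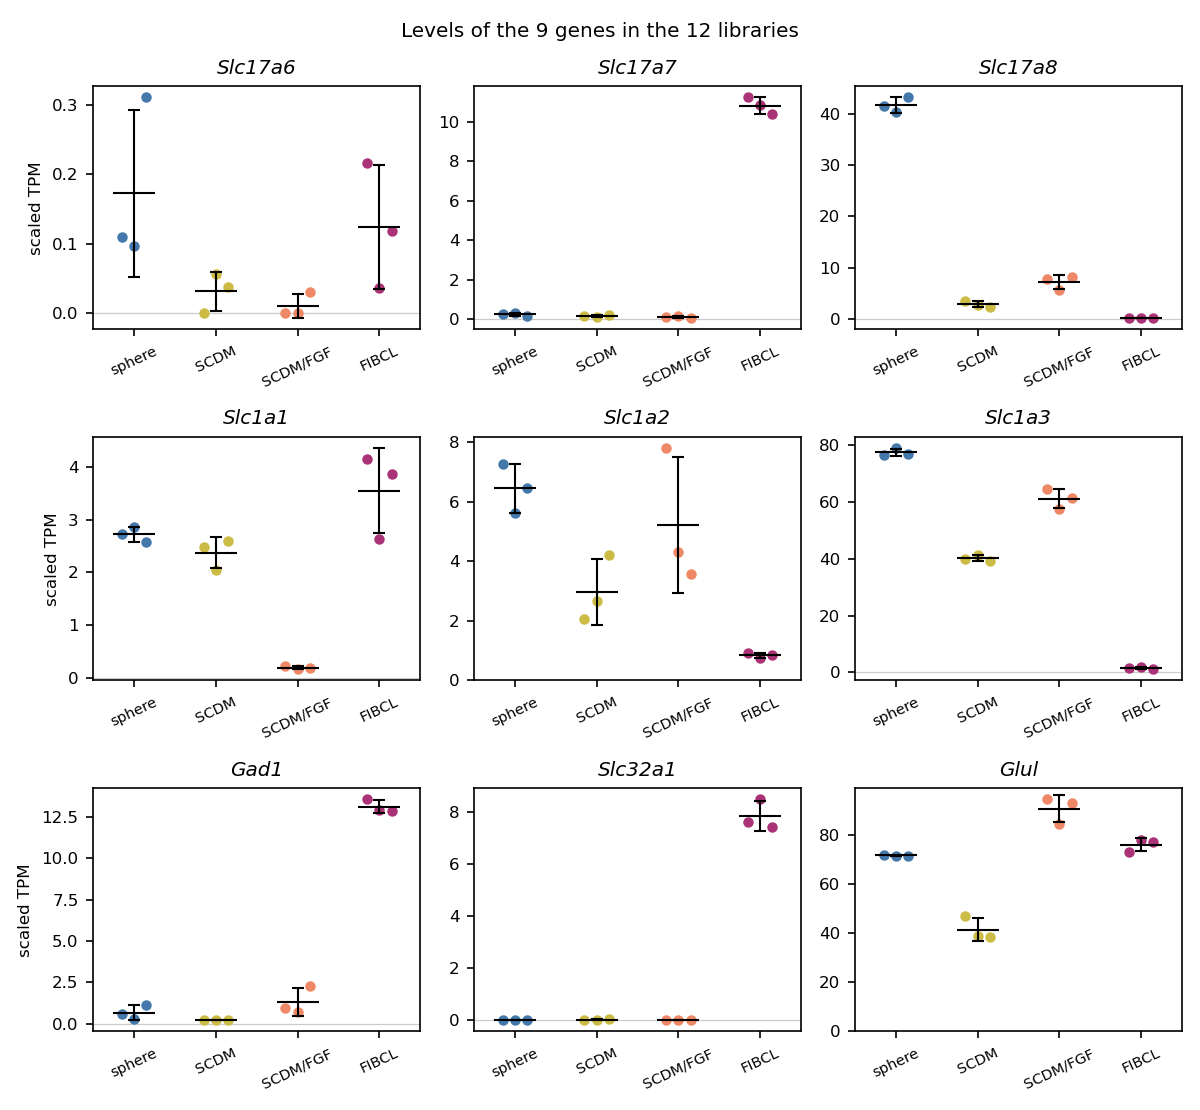
Scaled TPM (vertical axes, each panel on its own scale) of the 9 genes in the 4 groups. Points are single libraries, the long bar is the mean and the error bar the SD (n = 3). Slc17a7, Gad1 and Slc32a1 stand high in FIBCL, Slc17a8 and Slc1a3 are highest in spheres, and Slc17a6 is at 0.311 or less in every library.

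Sequences upstream of the start are shown for the 3 genes that were high in FIBCL and near 0 or low elsewhere and for a pair that was high in spheres and low in FIBCL, since these carry the main contrast. RefSeq (GRCm38.p6) gave at least 1 window for each of the 9 genes, and the 250 bases before the start were searched on both strands for the E-box CANNTG and its forms CAGCTG and CAGATG, for the cAMP response element TGACGTCA and its shorter core TGACG, and for the SOX-type words ACAAAG and ACAATG. The forms CAGCTG and CAGATG are contained in CANNTG, and TGACG is contained in TGACGTCA. Of 32851 windows in the table, 66.2% held CANNTG, 13% CAGCTG, 14.4% CAGATG, 1.55% TGACGTCA, 17.8% TGACG, 16.5% ACAAAG and 10.7% ACAATG. Sequences run 5′ to 3′ on the strand of the gene and stop before the next exon of the gene in GENCODE M21. That of Gad1 precedes the start given by RefSeq, and lies in an intron of another GENCODE transcript that starts farther upstream. Capitals mark the E-box CANNTG, the core TGACG and the SOX-type words on either strand. They are, in order, Slc17a7 (chr7:45163671-45163920, plus strand), Slc32a1 (chr2:158610508-158610757, plus strand), Gad1 (chr2:70561879-70562041, plus strand), Slc17a8 (chr10:89621254-89621499, minus strand) and Slc1a3 (chr15:8710808-8711057, minus strand).
Slc17a7: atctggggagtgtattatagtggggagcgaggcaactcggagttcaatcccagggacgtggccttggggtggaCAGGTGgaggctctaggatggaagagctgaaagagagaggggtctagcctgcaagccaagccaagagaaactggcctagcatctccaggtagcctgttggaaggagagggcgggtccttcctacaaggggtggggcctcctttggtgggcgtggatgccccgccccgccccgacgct
Slc32a1: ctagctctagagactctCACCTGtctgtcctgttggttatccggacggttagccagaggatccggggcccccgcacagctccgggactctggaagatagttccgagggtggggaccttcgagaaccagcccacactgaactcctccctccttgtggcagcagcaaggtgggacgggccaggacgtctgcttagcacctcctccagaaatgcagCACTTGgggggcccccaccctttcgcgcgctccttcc
Gad1: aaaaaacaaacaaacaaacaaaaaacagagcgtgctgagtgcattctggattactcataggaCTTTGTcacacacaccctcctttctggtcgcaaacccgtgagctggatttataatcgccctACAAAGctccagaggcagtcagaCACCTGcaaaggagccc
Slc17a8: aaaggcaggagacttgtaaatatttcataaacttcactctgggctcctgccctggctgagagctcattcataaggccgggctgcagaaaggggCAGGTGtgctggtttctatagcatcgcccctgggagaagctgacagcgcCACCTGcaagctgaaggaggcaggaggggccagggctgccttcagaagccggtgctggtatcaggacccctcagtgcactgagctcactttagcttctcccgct
Slc1a3: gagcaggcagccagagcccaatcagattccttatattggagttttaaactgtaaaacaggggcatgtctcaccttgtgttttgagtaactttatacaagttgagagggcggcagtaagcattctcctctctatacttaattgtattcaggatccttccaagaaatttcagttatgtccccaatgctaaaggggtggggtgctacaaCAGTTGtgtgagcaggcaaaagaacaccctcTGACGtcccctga
Each of the 5 stretches held at least 1 CANNTG word. The stretches of Slc17a7, Slc32a1 and Gad1 each held 1 copy of the form CAGGTG, read on either strand, and that of Slc17a8 held 2. This form was searched after the sequences were seen, and 17.2% of all windows held it. Gad1 also had 2 ACAAAG words, and Slc1a3 had 1 TGACG. None of the 5 held TGACGTCA, CAGCTG or CAGATG. Slc17a8 has another RefSeq window farther downstream (chr10:89599816-89600065), which is not shown and held 1 CAGATG. These are matches of letters only, and no binding was measured.

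Among the vesicular glutamate transporters, Slc17a7 was high in FIBCL and Slc17a8 in spheres. Slc17a7 (chr7:45163949-45176142, GRCm38) was at 11.2, 10.8 and 10.4 scaled TPM in the 3 FIBCL libraries. It was at 0.280, 0.315 and 0.168 in spheres, at 0.190, 0.121 and 0.198 in SCDM and at 0.108, 0.181 and 0.0508 in SCDM/FGF. The FIBCL libraries thus lay apart from all 9 others, whose values overlapped. The difference from SCDM was 3.34 (SE 0.0943, limma adjusted p = 6.04e-11), that from SCDM/FGF was 3.41 (adjusted p = 5.56e-11) and that from spheres was 3.24 (adjusted p = 8.63e-11). Slc17a7 entered the test only through the FIBCL libraries, so it could not have been tested without a difference. Among the other groups its limma adjusted p was 0.416 for SCDM against spheres, 0.156 for SCDM/FGF against spheres and 0.578 for SCDM/FGF against SCDM. The intervals of the difference all lay between -0.38 and 0.14. At levels this low the added 1 keeps differences small, so narrow intervals do not show equal levels. Over 22 alternatives of the processing, SCDM/FGF against spheres ran from -0.75 to -0.13.

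Slc17a8 (chr10:89574020-89621253) was instead highest in spheres and lowest in FIBCL. Spheres held 41.5, 40.2 and 43.2 scaled TPM (41.7 ± 1.51, SD, n = 3). Levels were 7.86, 5.67 and 8.24 in SCDM/FGF, 3.44, 2.75 and 2.34 in SCDM and 0.120, 0.148 and 0.0920 in FIBCL. No group overlapped with another, and all 6 comparisons were called. Relative to spheres, the mean was 14.7-fold lower in SCDM (difference -3.48, SE 0.134, limma adjusted p = 3.63e-09) and 5.74-fold lower in SCDM/FGF (difference -2.38, limma adjusted p = 7.32e-08). With bFGF in the medium it was 2.55-fold higher than without it (difference 1.10, limma adjusted p = 4.38e-05). FIBCL was lower than SCDM by 1.77, lower than SCDM/FGF by 2.87 and lower than spheres by 5.25 on the log2 scale (limma adjusted p = 2.57e-07, 4.07e-09 and 3.10e-11). Slc17a8 is a marker of inner hair cells in the cochlea, and the other 4 hair cell markers followed other orders. The genes of otoferlin, Otof, and of a hair cell transcription factor, Pou4f3, were near 0 in spheres, SCDM and SCDM/FGF (Otof at 0.0175 or less and Pou4f3 at 0 in all 9 libraries), and Pou4f3 was at 0.467 to 0.999 in FIBCL. Myo7a, which encodes a myosin of hair bundles, was at 3.77 to 5.30 in spheres, 35.1 to 45.6 in SCDM, 10.1 to 12.6 in SCDM/FGF and 4.95 to 5.90 in FIBCL, and Gfi1 was below 1 in every library. The 5 markers, Slc17a8 included, summed to 45.6 to 47.0 in spheres, where Slc17a8 made up most of the sum, and to 38.6 to 48.0 in SCDM, where Myo7a did. They summed to 18.4 to 19.3 in SCDM/FGF and 6.77 to 7.06 in FIBCL.

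Slc17a6 (chr7:51622006-51671119) was near 0 throughout. Its levels were 0.110, 0.0962 and 0.311 in spheres, 0, 0.0560 and 0.0378 in SCDM, 0, 0 and 0.0305 in SCDM/FGF and 0.215, 0.0369 and 0.118 in FIBCL. It did not reach the 1 TPM needed to enter the test. Two-sided exact permutation tests of the deposited values, which cannot go below p = 0.1 with 3 libraries against 3, gave adjusted p of 0.3 to 0.4 over the 6 comparisons.

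Within the sum of these 3 transporters, a share that the scaling of a library cannot move, Slc17a8 made up 98.9% to 99.1% in spheres, 90.8% to 94.8% in SCDM and 96.9% to 99.0% in SCDM/FGF. In FIBCL it made up 0.868% to 1.34%, and Slc17a7 made up 97.1% to 98.3%. The summed level was 40.6 to 43.7 scaled TPM in spheres, 2.58 to 3.63 in SCDM, 5.85 to 8.33 in SCDM/FGF and 10.6 to 11.6 in FIBCL. The shares of Slc17a7 and Slc17a8 in FIBCL did not overlap with those of any other group (two-sided exact permutation p = 0.1, the smallest that 3 against 3 allows, adjusted p = 0.164 over 36 tests).

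**Figure D2:**
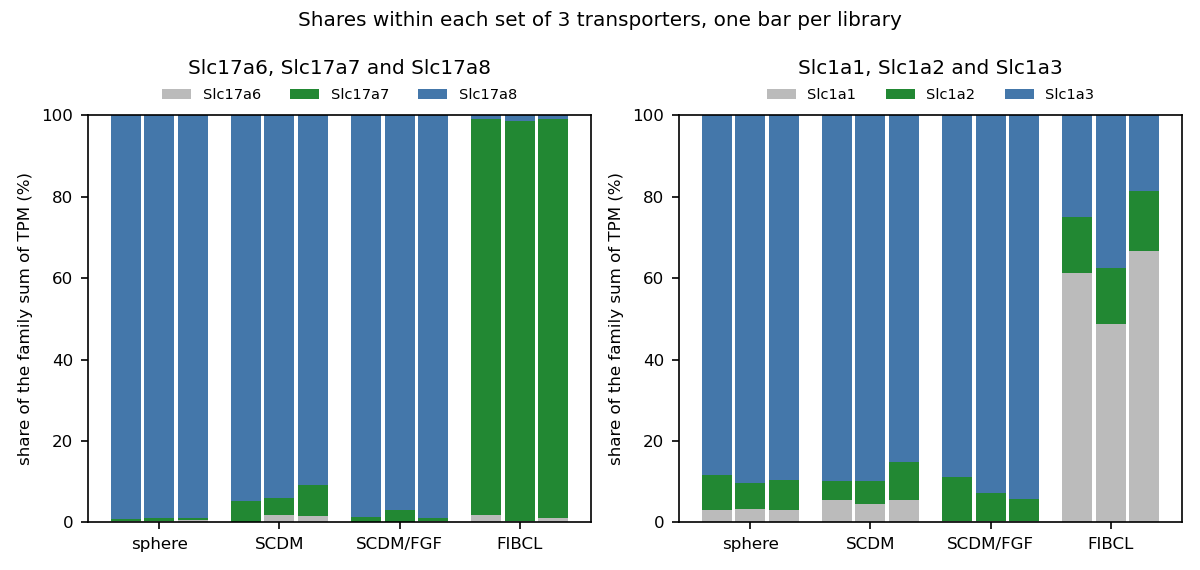
Share (%) of each gene in the summed TPM of Slc17a6, Slc17a7 and Slc17a8 (left) and of Slc1a1, Slc1a2 and Slc1a3 (right), one bar per library, replicates 1 to 3 from left to right in each group. Slc17a8 fills 90.8% or more of the left bars outside FIBCL and Slc17a7 97.1% or more in FIBCL, and Slc1a3 fills 85.3% or more of the right bars outside FIBCL and 37.5% or less in FIBCL.

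Of the RNA of the 3 glutamate uptake genes Slc1a1, Slc1a2 and Slc1a3, most was Slc1a3 outside FIBCL. Slc1a3 (chr15:8634124-8710764), a gene of astrocytes and other glia, was at 76.6, 79.0 and 76.9 scaled TPM in spheres and at 64.5, 57.7 and 61.6 in SCDM/FGF. It was at 39.9, 41.4 and 39.4 in SCDM and at 1.70, 2.03 and 1.08 in FIBCL. The groups did not overlap. The FIBCL mean was 25.1-fold lower than that of SCDM (difference -4.00, SE 0.110, limma adjusted p = 4.66e-11), 38.2-fold lower than that of SCDM/FGF (difference -4.60, limma adjusted p = 1.81e-11) and 48.4-fold lower than that of spheres (difference -4.93, limma adjusted p = 1.12e-11). SCDM was 1.93-fold lower than spheres (limma adjusted p = 2.81e-05) and SCDM/FGF was 1.52-fold higher than SCDM (limma adjusted p = 0.00102). SCDM/FGF was also called lower than spheres, by 0.34 (limma adjusted p = 0.0244). The difference was -0.56 on the deposited TPM. On the main scale the call was lost with a pseudocount of 0.1 (adjusted p = 0.107) or 0.5 (adjusted p = 0.0536), and without any 1 of the 3 sphere libraries or of SCDM/FGF libraries 2 and 3 (adjusted p = 0.0512 to 0.0816).

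Slc1a2 (chr2:102658659-102790784), the main glutamate transporter of forebrain astrocytes, was far below Slc1a3 in spheres, at 7.26, 5.60 and 6.46. It was at 2.05, 2.65 and 4.21 in SCDM, at 7.81, 4.29 and 3.56 in SCDM/FGF and at 0.921, 0.751 and 0.854 in FIBCL. FIBCL lay below every other library, and the SCDM/FGF libraries overlapped both spheres and SCDM. FIBCL was lower than SCDM by 1.07 (SE 0.242, limma adjusted p = 0.00191), lower than SCDM/FGF by 1.70 (limma adjusted p = 6.42e-05) and lower than spheres by 2.01 (limma adjusted p = 1.57e-05). SCDM was 2.17-fold lower than spheres (difference -0.94, limma adjusted p = 0.00728). The difference between SCDM/FGF and SCDM was 0.62 with a 95% interval of 0.09 to 1.16, and it was not called after adjustment (limma adjusted p = 0.0579), but it was called without SCDM library 3 (0.84, adjusted p = 0.0188) and without SCDM/FGF library 3 (0.82, adjusted p = 0.0238). Over the 22 alternatives this difference ran from 0.35 to 0.84. Likewise, SCDM/FGF was not called against spheres (-0.31, adjusted p = 0.312), but was without SCDM/FGF library 1 (-0.59, adjusted p = 0.0334). The difference from spheres ran from -0.59 to -0.12 over the alternatives.

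Slc1a1 (chr19:28835049-28913960), whose product is the mainly neuronal transporter EAAC1, followed another order. It was at 4.15, 2.64 and 3.86 scaled TPM in FIBCL, 2.73, 2.87 and 2.58 in spheres, 2.49, 2.04 and 2.60 in SCDM and 0.235, 0.171 and 0.183 in SCDM/FGF. SCDM/FGF thus stood far below the other 3 groups. It was lower than SCDM by 1.49 (SE 0.132, limma adjusted p = 3.35e-06), and lower than spheres by 1.64 (limma adjusted p = 1.38e-06). FIBCL was higher than SCDM/FGF by 1.91 (limma adjusted p = 1.26e-07). FIBCL was called higher than SCDM by 0.42 (limma adjusted p = 0.0140), but this call was lost without FIBCL library 1 (adjusted p = 0.0621), FIBCL library 3 (adjusted p = 0.0507) or SCDM library 2 (adjusted p = 0.0593), and on the deposited TPM (0.12, adjusted p = 0.418). Against spheres the FIBCL difference was 0.27 (interval -0.02 to 0.56, limma adjusted p = 0.0849), it turned to -0.14 on the deposited TPM and -0.04 after rescaling to a common total, and it was called without FIBCL library 2 (0.43, adjusted p = 0.00541). The pseudogene Gm5822 within Slc1a1 had 1.63 to 1.91 scaled TPM in FIBCL and 0.823 to 1.58 elsewhere.

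The summed level of the 3 uptake genes was 86.0 to 87.5 in spheres, 62.1 to 72.5 in SCDM/FGF, 44.4 to 46.2 in SCDM and 5.42 to 6.77 in FIBCL. Slc1a3 made up 88.5% to 90.3% of it in spheres, 85.3% to 89.8% in SCDM, 88.9% to 94.3% in SCDM/FGF and 18.6% to 37.5% in FIBCL, where Slc1a1 made up 48.6% to 66.7%. For Slc1a1 and Slc1a3 the FIBCL shares did not overlap with those of SCDM (two-sided exact permutation p = 0.1 for both, adjusted p = 0.164 over 36 tests). All 5 astrocyte markers were called lower in FIBCL than in each other group, as were Slc1a2, Slc1a3 and 38.2% to 39% of all genes. So were all 7 fibroblast and otic mesenchyme markers and 9 or 10 of the 10 Schwann and satellite glial markers. The water channel gene Aqp4 was at 0 in all 3 FIBCL libraries. The astrocyte markers summed to 179 to 193 in spheres, 73.5 to 91.2 in SCDM, 102 to 125 in SCDM/FGF and 6.39 to 7.32 in FIBCL. Between SCDM/FGF and SCDM 1 of the 5 was called, where 43.1% of all genes were. It was Aldh1l1, at 30.7 to 33.6 against 4.38 to 5.05.

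Gad1 and Slc32a1, which make and load GABA, were high in FIBCL. Gad1 (chr2:70553072-70602014) was at 13.6, 13.0 and 12.9 scaled TPM in FIBCL. It was at 0.576, 0.297 and 1.15 in spheres, at 0.219, 0.196 and 0.227 in SCDM and at 0.960, 0.715 and 2.27 in SCDM/FGF. FIBCL lay above all other libraries, and the third libraries of SCDM/FGF and of spheres were the highest of their groups. The FIBCL difference was 3.54 from SCDM (SE 0.229, limma adjusted p = 6.54e-08), 2.67 from SCDM/FGF (limma adjusted p = 8.43e-07) and 3.11 from spheres (limma adjusted p = 2.23e-07). Outside FIBCL only 1 sphere library and 1 SCDM/FGF library reached 1 TPM, so Gad1 entered the test only because of FIBCL. SCDM/FGF was higher than SCDM by 0.87 (limma adjusted p = 0.00934). SCDM differed from spheres by -0.43 (adjusted p = 0.142) and SCDM/FGF from spheres by 0.44 (adjusted p = 0.135), neither called. The former was called with a pseudocount of 0.1 (-1.15, adjusted p = 0.0462) and without SCDM/FGF library 3 (-0.43, adjusted p = 0.0477), and the latter without sphere library 3 (0.63, adjusted p = 0.0449) or SCDM/FGF library 2 (0.63, adjusted p = 0.0495). Over the 22 alternatives, the former ran from -1.15 to -0.23 and the latter from 0.16 to 0.87.

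Slc32a1 (chr2:158610767-158615748) was at 7.63, 8.50 and 7.41 scaled TPM in FIBCL and was listed at 0 in 8 of the 9 other libraries, the exception being SCDM library 3 at 0.0378. The FIBCL difference was 3.13 from SCDM (SE 0.0882, limma adjusted p = 5.93e-11) and 3.14 from both SCDM/FGF and spheres (limma adjusted p = 6.20e-11 and 6.33e-11). Like Slc17a7, it passed the limit on low values through FIBCL alone. The noncoding gene Gm14204, which lies just upstream on the opposite strand, was at 2.19, 2.64 and 3.44 in FIBCL and at 0.00934 or less elsewhere, and Gm14205, antisense within Slc32a1, was listed at 0 in FIBCL. The antisense gene of Gad1, Gad1os, was at 3.12, 2.98 and 1.13 in FIBCL, 1.60 to 2.17 in spheres, 0 to 0.400 in SCDM and 1.98 to 6.94 in SCDM/FGF. The methods of the study mention an orientation mode in the alignment, but not whether reads were counted by strand, so reads of an overlapping pair may not be separated.

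The 7 markers of inhibitory neurons were each at 4.16 or less in every library. Gad2, which encodes GAD65, had 0.694, 0.628 and 0.447 scaled TPM in FIBCL, 0.470 to 0.579 in SCDM/FGF, 0.127 to 0.235 in spheres and 0.0286 to 0.140 in SCDM. It was below the limit for the test, and its FIBCL libraries lay above those of spheres and SCDM and overlapped those of SCDM/FGF. Slc6a5, the glycine transporter of glycinergic neurons, was at 0.0359 to 0.118 in FIBCL and at 0.0190 or less elsewhere, and the cerebellar and spinal inhibitory factor Ptf1a was at 0 in all 12. Lhx6, a factor of forebrain interneurons, was at 1.29, 1.70 and 1.42 in FIBCL, 2.59 to 3.29 in SCDM/FGF, 0.0661 to 0.533 in SCDM and 0.114 to 0.864 in spheres. FIBCL was called higher than SCDM for Lhx6 (0.99, limma adjusted p = 0.000831) and lower than SCDM/FGF (-0.67, limma adjusted p = 0.0106). The forebrain interneuron factors Dlx1, Dlx2 and Dlx5 were not called between FIBCL and SCDM. They were called lower in FIBCL than in spheres, as were 38.7% of all genes. Dlx2 and Dlx5 entered the test only because of spheres, where they were highest. The 7 markers together summed to 4.27 to 5.10 in FIBCL, 3.38 to 3.68 in SCDM, 4.75 to 6.06 in SCDM/FGF and 8.60 to 10.9 in spheres. Slc18a3, the vesicular acetylcholine transporter, was at 2.74, 2.27 and 2.40 in FIBCL and at 0.0262 or less elsewhere (difference from SCDM 1.79, limma adjusted p = 7.69e-09), and it entered the test through FIBCL alone.

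Glul (chr1:153899944-153909723) was the most abundant of the 9 genes in SCDM/FGF and FIBCL. It was at 71.8, 71.5 and 71.6 scaled TPM in spheres, 46.9, 38.9 and 38.6 in SCDM, 94.4, 84.4 and 93.2 in SCDM/FGF and 73.0, 77.8 and 77.0 in FIBCL. SCDM was the lowest group and SCDM/FGF the highest, without overlap. SCDM was 1.73-fold lower than spheres (difference -0.78, SE 0.0711, limma adjusted p = 3.56e-06), and SCDM/FGF was 2.19-fold higher than SCDM (difference 1.11, limma adjusted p = 2.12e-07). FIBCL was 1.83-fold higher than SCDM (difference 0.86, limma adjusted p = 5.42e-07) and 1.19-fold lower than SCDM/FGF (difference -0.25, limma adjusted p = 0.00809). On the deposited TPM these differences were 0.47 and -0.56, and both were called there as well. FIBCL and spheres differed by 0.08 with an interval of -0.07 to 0.24 (limma adjusted p = 0.313). The difference of FIBCL from spheres depended on the scale, being -0.46 (adjusted p = 0.000122) on the deposited TPM and -0.33 (adjusted p = 0.00141) after rescaling to a common total. The 0.33 by which SCDM/FGF exceeded spheres (limma adjusted p = 0.00226) was 0.11 and 0.12 on those scales (adjusted p = 0.231 and 0.175).

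**Figure D3:**
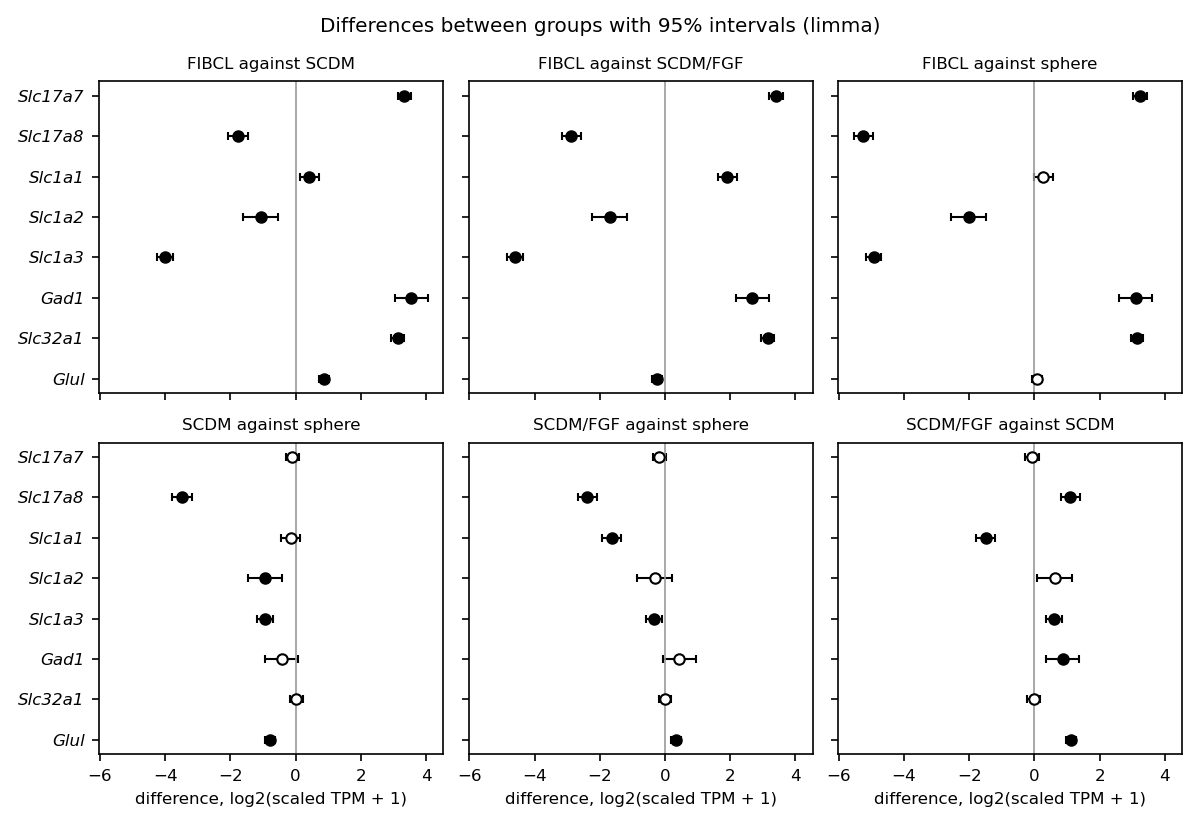
Differences between groups (horizontal axis, log2(scaled TPM + 1), first group minus second) for the 8 tested genes in the 6 comparisons, with 95% limma intervals. Filled points were called at adjusted p under 0.05 and open points were not, and the difference of Slc17a8 runs from -5.25 in FIBCL against spheres to 1.10 in SCDM/FGF against SCDM.

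Of the 9 genes, 8 entered the test, of which Slc17a7, Slc32a1 and Gad1 did so only because of FIBCL. Counts over the genes are therefore given as a description. In FIBCL against SCDM all 8 tested were called, where 71.7% of all tested genes were called. Slc17a7, Slc1a1, Gad1, Slc32a1 and Glul were higher (32.7% of all genes were) and Slc17a8, Slc1a2 and Slc1a3 lower (39% of all genes). In FIBCL against SCDM/FGF all 8 were called beside 70.7% of all genes, 4 of them higher (32.5% of all genes) and 4 lower (38.2%). In FIBCL against spheres 6 were called beside 71.6%, 3 higher (32.9% of all genes) and 3 lower (38.7%).

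Among the groups without small molecules the calls were fewer, both over these genes and over all. In SCDM against spheres 4 were called beside 50.3% of all genes, none of them higher (24.5% of all genes) and 4 lower (25.8%), namely Slc17a8, Slc1a2, Slc1a3 and Glul. In SCDM/FGF against spheres 4 were called beside 50.4%, with Glul higher (25% of all genes) and Slc17a8, Slc1a1 and Slc1a3 lower (25.4%). In SCDM/FGF against SCDM 5 were called beside 43.1%, with Slc17a8, Slc1a3, Gad1 and Glul higher (21.8% of all genes) and Slc1a1 lower (21.3%).

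With a difference of at least 1.5 also required, FIBCL against SCDM left 5 of these genes (17.9% of all genes), FIBCL against SCDM/FGF left 7 (16.8%) and FIBCL against spheres left 6 (15.9%). SCDM against spheres left 1, Slc17a8 (6.18%), SCDM/FGF against spheres left 2, Slc17a8 and Slc1a1 (6.04%), and SCDM/FGF against SCDM left none (4.85%). The libraries of both groups did not overlap for 8 of the 8 tested genes in FIBCL against SCDM (74.7% of all genes), 8 in FIBCL against SCDM/FGF (72.9%) and 7 in FIBCL against spheres (75%). The same held for 5 genes in SCDM against spheres (58.6%), 4 in SCDM/FGF against spheres (57%) and 5 in SCDM/FGF against SCDM (51.6%).

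The other genes of glutamate and GABA handling comprised 31 genes in 5 groups, of which 24 were tested. In FIBCL against SCDM, 12 were higher (32.7% of all genes were), 7 lower (39%) and 5 not called, with a median difference of 0.35, beside a median of -0.07 over all genes. On the deposited TPM, 9 were higher and 9 lower, where 3280 of all 16016 tested genes were higher and 8922 lower. The median difference on that scale was 0.00058 for the 24 genes and -0.40 over all genes. In SCDM against spheres, 11 were higher (24.5% of all genes), 4 lower (25.8%) and 9 not called, with a median difference of 0.39 beside -0.01 over all genes. In SCDM/FGF against SCDM, 5 were higher (21.8% of all genes) and 11 lower (21.3%), with a median difference of -0.24 beside -0.02 over all genes.

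Among glutamine transporters, 3 of 4 tested were higher and 1 lower in FIBCL than in SCDM, where 32.7% of all genes were higher and 39% lower. Slc38a3, a transporter that releases glutamine from astrocytes, had 4.87, 5.20 and 5.81 scaled TPM in FIBCL and 0.123 to 0.364 in SCDM (difference 2.31, limma adjusted p = 7.33e-09). Slc38a1, which takes glutamine up into neurons, had 40.7 to 43.5 in FIBCL and 13.6 to 14.9 in SCDM (difference 1.47, limma adjusted p = 8.50e-09). Slc38a7, a lysosomal glutamine transporter, was higher by 1.18 (limma adjusted p = 2.45e-07). Slc38a2, induced in many cells by amino acid shortage, was lower by 1.44, at 30.5 to 33.8 against 85.3 to 92.2 (limma adjusted p = 3.92e-10).

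Among enzymes, 5 of 9 tested were higher and 2 lower in FIBCL than in SCDM, beside the same 32.7% and 39% of all genes. The aspartate aminotransferases, which interconvert glutamate and aspartate, were higher, with Got2 at 160 to 167 against 69.4 to 69.6 (difference 1.22, limma adjusted p = 4.41e-11) and Got1 at 66.3 to 70.1 against 34.9 to 37.3 (difference 0.91, limma adjusted p = 3.12e-09). Oat and Aldh18a1, which link glutamate with ornithine and proline, were lower by 1.67 and 1.27 (limma adjusted p = 4.26e-11 and 6.58e-08). Aldh18a1 had 59.7 to 65.4 in SCDM and 16.1 to 17.0 in spheres. Abat and Glud1 were named beside these after their values were seen. The GABA transaminase gene Abat was at 35.4 to 37.9 in FIBCL and at 20.3 to 25.9 in the other groups (difference from SCDM 0.69, limma adjusted p = 7.33e-06). Glud1, glutamate dehydrogenase, was called in none of the 6 comparisons (limma adjusted p = 0.291 to 0.950).

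Among GABA and glycine carriers of the plasma membrane, both tested were lower in FIBCL than in SCDM, as were 39% of all genes. Slc6a9, the glycine transporter GLYT1, was at 1.43 to 2.07 in FIBCL, 4.52 to 6.58 in SCDM/FGF, 23.6 to 26.0 in SCDM and 11.7 to 13.3 in spheres (FIBCL against SCDM -3.25, limma adjusted p = 6.92e-10). Slc6a12, the betaine and GABA transporter BGT1, was low throughout, at 0.0394 to 0.702 in FIBCL and 0.828 to 1.21 in SCDM (difference -0.64, limma adjusted p = 0.0255).

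Of the other SLC1 carriers and the cystine/glutamate exchanger, 4 of 5 tested were higher and 1 lower in SCDM than in spheres (24.5% and 25.8% of all genes), and 1 was higher and 4 lower in SCDM/FGF than in SCDM (21.8% and 21.3%). The neutral amino acid exchangers Slc1a4 and Slc1a5 had 28.9 to 33.1 and 17.5 to 22.0 in SCDM against 8.20 to 8.56 and 4.57 to 6.17 in spheres (differences 1.78 and 1.76, limma adjusted p = 1.26e-08 and 7.72e-07). Slc1a6, the glutamate transporter EAAT4 of cerebellar Purkinje cells, had 9.89, 12.5 and 9.33 in SCDM and 0.143 to 0.313 in spheres (difference 3.25, limma adjusted p = 5.29e-07). At 3.51 to 3.99 in FIBCL it was close to Slc1a1 and above Slc1a2 and Slc1a3 there, though it lay outside the shares given above. Slc7a11, the exchanger of cystine for glutamate, had 2.28 to 3.01 in SCDM and 16.6 to 26.1 in SCDM/FGF (difference 2.48, limma adjusted p = 2.10e-07). It thus rose with bFGF as Glul did, whereas Slc1a4, Slc1a5 and Slc1a6 fell (differences -1.28, -1.20 and -1.03, limma adjusted p = 1.87e-07, 2.19e-05 and 0.00409).

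**Figure D4:**
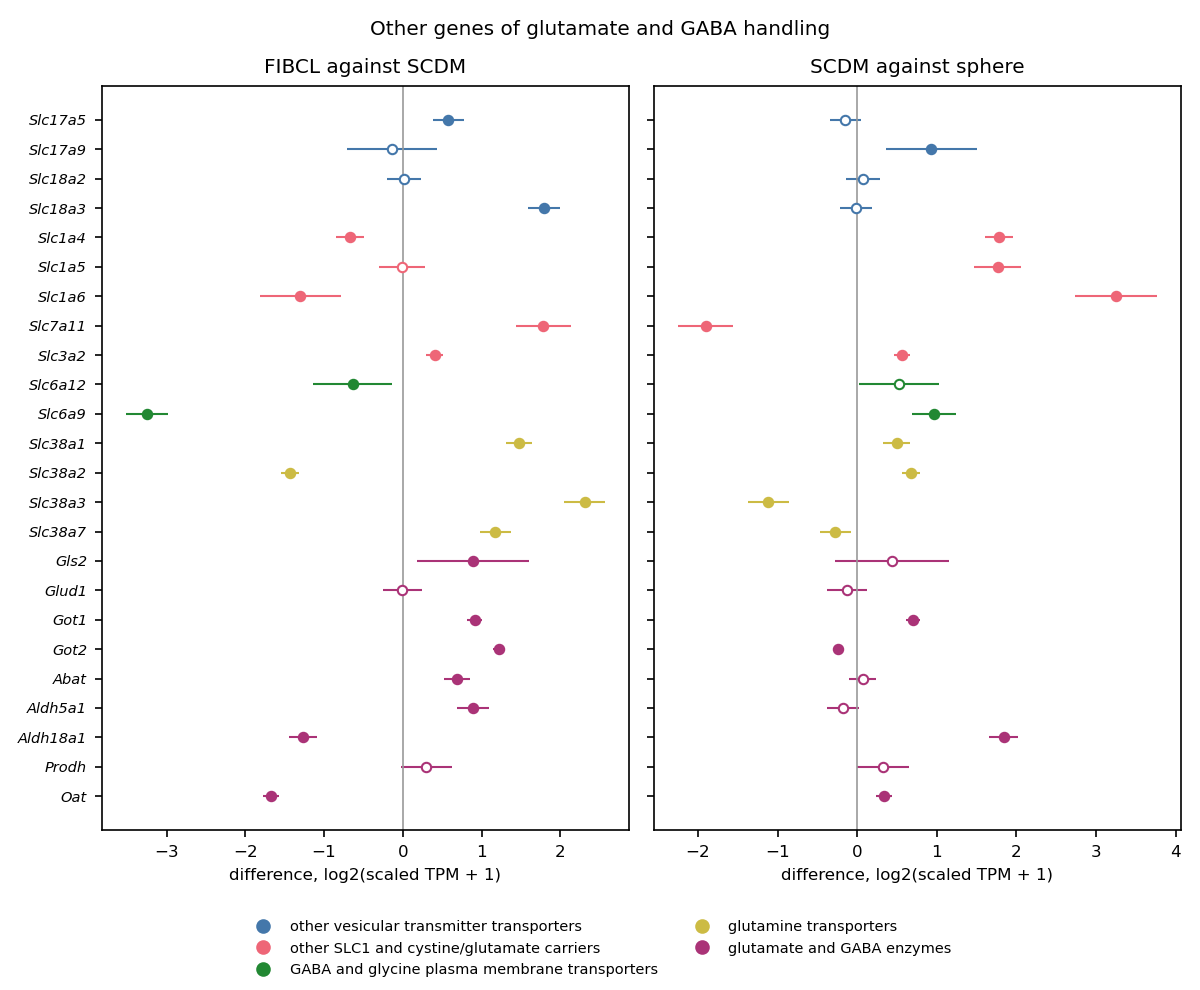
Differences (horizontal axes, log2(scaled TPM + 1), with 95% limma intervals) of the 24 tested genes of glutamate and GABA handling outside the 9, in FIBCL against SCDM (left) and SCDM against spheres (right). Colours give the 5 groups of genes, and filled points were called at adjusted p under 0.05. Slc6a9 has the lowest value on the left (-3.25) and Slc1a6 the highest on the right (3.25).

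The genes most like each of the 8 tested genes were taken by Pearson's r over the 12 libraries, which mainly reflects the differences between the 4 groups. For Slc17a7 they were Srrm3, Mmp24 and Elavl3 (r = 0.999 for each), of which Elavl3 encodes a neuronal RNA-binding protein, and 269 genes reached an r of at least 0.99. For Slc32a1 they were Lbx1, Eomes and Nts (r of 0.9995 to 0.9997), a pair of transcription factor genes and the neuropeptide gene neurotensin, among 287 genes at 0.99 or more. Gad1 had 1 such gene, Mdm2 (0.991), followed by Serinc1 and Tpbgl. For Slc17a8 they were Cnp, Pnmal2 and Met (0.995 to 0.996), with Cnp encoding an enzyme of myelinating glia, and 5 genes were at 0.99 or more. For Slc1a3 they were Nrp2, Eml1 and Efemp1 (0.998 to 0.999), among 46 genes. Glul was closest to Phlda1 (0.992), Litaf and Rtl8b, Slc1a1 to Oxa1l (0.988), Cd276 and Fam117b, and Slc1a2 to Srrm2 (0.978), Insr and Prdm10. Genes near 0 in 3 groups reach a high r with one another, so the ranks behind Slc17a7 and Slc32a1 are separated by small differences in r.

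**Figure D5:**
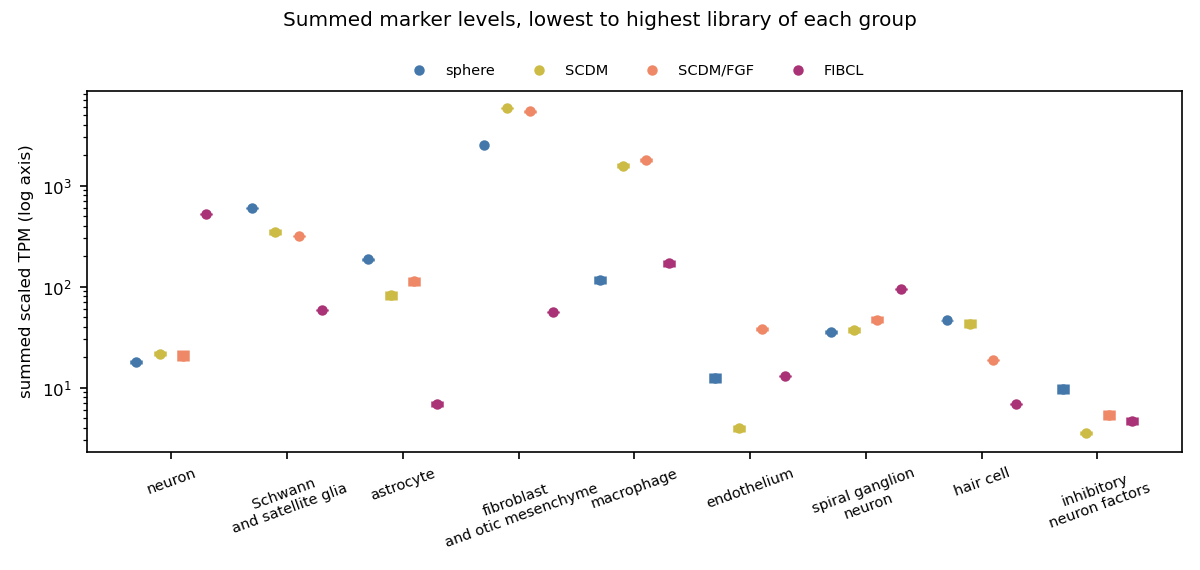
Summed scaled TPM of the markers of 9 cell types (log axis), with each short bar running from the lowest to the highest library of a group and its point at their geometric mean. Neuron markers are highest in FIBCL (515 to 536) and glial, astrocyte and fibroblast markers lowest there. The hair cell sum is mostly Slc17a8 in spheres and Myo7a in SCDM, the macrophage sum is mostly Cd68 in FIBCL, and the inhibitory neuron factors stay between 3.38 and 10.9 in every group.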

How the data were processed

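Poly(A) RNA of 12 libraries was sequenced by the authors, who used SeqPrep and Sickle for trimming, TopHat for alignment and RSEM for quantification (Cufflinks is also among the tools in the submitters' processing notes). The genome build is not given in the sources used here. The authors deposited TPM with 2 decimals for 55487 genes, although their methods speak of fragments per kilobase. TPM keeps no read counts, so depth and counting error are unknown. The listed TPM summed to 899295 to 911076 in FIBCL and 982067 to 994845 elsewhere.

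Groups came from the sample labels. Tests covered 16016 genes that reached 1 TPM in 3 or more of the 12 libraries. Libraries were rescaled by a trimmed mean (30% at each end) of log2 ratios to the average of all libraries, over 8434 genes of 5 TPM or more in all. Scaled TPM plus a pseudocount of 1 was log2 transformed and tested in limma 3.58.1 (R 4.3.3) in one model of 4 groups with a variance trend, with Benjamini-Hochberg adjustment within each of 6 comparisons. Slc17a6, below the limit, and shares within transporter sets were tested by two-sided exact permutation (Python 3.11.15, scipy 1.17.1, pandas 2.3.3, matplotlib 3.10.9). The fit was tested on simulated data. All 9 genes are named, and any gene of 5 fixed lists may be, with up to 4 per list with the largest differences as examples. The 3 genes of highest Pearson's r to each tested gene are named too. The genes and lists were chosen with earlier results of these data known. Positions are from GENCODE M21 (GRCm38), promoters from RefSeq (GRCm38.p6). Alternatives covered the scaling, the pseudocount, the limit on low values, the groups in the model, the variance trend, the replicate number as a block and each library left out, with the tested genes kept. Tests for read counts were not used. Some genes of these lists are not reported here.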

Additional observations from a re-analysis of the deposited data

How the results depend on the processing

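The 48 differences of the 8 tested genes were recomputed under 22 alternatives, which gave 1050 values. Of these, 1023 kept the direction and the side of the threshold, 15 were no longer called, 8 became called and 4 turned sign. The 4 were Slc1a1 and Glul in FIBCL against spheres, at -0.14 and -0.46 on the deposited TPM and at -0.039 and -0.33 after rescaling to a common total, and Glul was called lower there. The other changes are given in the report beside Slc1a1, Slc1a2, Slc1a3, Gad1 and Glul, and in addition the Slc1a1 difference between FIBCL and SCDM was not called with only those groups in the model (0.42, adjusted p = 0.0509) or after rescaling to a common total (0.21, adjusted p = 0.173). The cause was not tested. With a pseudocount of 0.1 differences that involve low levels grew by over 1.5 times and kept their call, among them Slc17a7 (5.35), Slc17a8 (-3.73), Slc32a1 (6.16), Gad1 (5.40) and Slc1a2 (-1.65) in FIBCL against SCDM and Slc1a1 in SCDM/FGF against SCDM (-3.06). The share of higher calls over all genes depended on the scale: on the deposited TPM and after rescaling to a common total it was 28.9% and 34.8% (46% in the main scale) in FIBCL against SCDM/FGF, 21.4% and 25.7% (46%) in FIBCL against spheres, 33% and 34.1% (48.6%) in SCDM against spheres, 26.9% and 27.8% (49.6%) in SCDM/FGF against spheres and 39.1% in both (50.5%) in SCDM/FGF against SCDM.

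With the replicate number as a block, 8 of the 9 genes were called in FIBCL against SCDM as without it, and 11391 genes in all (11480 without the block). Libraries of the same number did not deviate together (r -0.121 to 0.0976 over 18 pairs, median 0.0226), and none was closest to its own number in every group, so the number was not read as a pairing. The unknown depth limits what can be said of Slc17a6, Gad2 and other genes below 1 TPM.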

Other observations

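Genes of other transmitters, a list chosen after the data were seen, were mostly near 0. Ache, which encodes acetylcholinesterase, was at 8.64, 8.61 and 9.58 scaled TPM in FIBCL and at 0.263 to 0.957 in the other 9 libraries (difference from SCDM 2.77, limma adjusted p = 1.71e-09), and it entered the test through FIBCL alone. Chat, the acetylcholine-forming enzyme, was at 0.108, 0.222 and 0.118 in FIBCL and at 0 elsewhere, too low for the test. Slc5a7, the choline transporter, was highest in spheres at 2.24, 3.20 and 2.18, and was at 0.616 to 0.766 in FIBCL, 0.931 to 1.03 in SCDM/FGF and 0.151 to 0.271 in SCDM. FIBCL was higher than SCDM for Slc5a7 by 0.52 (limma adjusted p = 0.00219) and lower than spheres by 1.04 (limma adjusted p = 1.06e-05). Slc5a7 entered the test only because of spheres, and its levels in FIBCL and SCDM were below 1. Slc6a3, the dopamine transporter, was at 1.21, 1.26 and 0.893 in FIBCL and at 0.118 or less elsewhere, whereas Th, the rate-limiting enzyme of dopamine synthesis, was at 0 in all 3 FIBCL libraries. The serotonin and histamine genes Tph1, Tph2, Slc6a4 and Hdc did not exceed 0.516 in any library.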
